A study of Mus musculus with 15 samples.

Results

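The small leucine-rich proteoglycans are secreted matrix proteins with a short core built of leucine-rich repeats, most of them carrying chondroitin, dermatan or keratan sulfate chains. The set examined was a list of 10 named genes of this family: Ogn, Dcn, Bgn, Lum, Fmod, Prelp, Aspn, Optc, Omd and Podn. All 10 were among the 34714 genes of the deposited table, and all 10 passed the filter on low values. They were measured by RNA sequencing of mouse aorta in 3 groups of 5 libraries, all labelled wild type (WT). AngII+RvE1 mice (labelled E1) received angiotensin II, a vasoconstrictor peptide, at 750 ng per kg per minute, together with daily intraperitoneal resolvin E1 (RvE1) at 2 µg per kg, a lipid mediator of the resolution of inflammation. AngII mice received the peptide infusion alone, which is used to raise blood pressure, and Sham mice served as the controls. Age, sex, strain and treatment duration are not in the labels used here, nor whether each library came from its own animal, so the p-values reflect only how far these libraries scatter, part of which may be technical.

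In the vessel wall these proteins bind collagen fibrils and set their diameter and spacing, and several bind growth factors of the TGF-beta family. Decorin (Dcn), biglycan (Bgn) and asporin (Aspn) form one structural class, lumican (Lum), fibromodulin (Fmod), PRELP (Prelp) and osteoadherin (Omd) a second, and osteoglycin (Ogn, also called mimecan) and opticin (Optc) another, while podocan (Podn) stands in a class of its own. Fibroblasts of the adventitia are known as a main source of decorin and lumican, whereas biglycan is also made by smooth muscle cells.

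Of the 10 genes, Ogn, Prelp and Optc fell in AngII compared with Sham, and Bgn, Prelp and Optc rose in AngII+RvE1 compared with AngII. Each of the 3 falls kept an adjusted p under 0.05 in only 3 of the 15 fits that left 1 library out. Of the rises, Optc kept it in all 15, Prelp in 8 and Bgn in 5. Optc moved most, with means of 22.1 ± 5.44 FPKM in AngII+RvE1, 4.35 ± 1.80 FPKM in AngII and 15.4 ± 7.68 FPKM in Sham (SD, n = 5 each). Dcn averaged 404 ± 134 FPKM in AngII+RvE1, 438 ± 121 FPKM in AngII and 426 ± 96.2 FPKM in Sham, and passed no test. No member differed between AngII+RvE1 and Sham beyond the threshold. FPKM here stands for the deposited normalised value per gene and library, treated as scaled to transcript length and depth.

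The promoters of the 4 genes that passed a test in any comparison are shown because Prelp and Optc moved together in 2 comparisons and lie next to each other. Each is the RefSeq window on GRCm38.p6 from 250 bases before to 50 bases after the start of a transcript, written 5′ to 3′ along the gene. Capitals mark matches on either strand to the TATA box (TATAAA), the GC box (GGGCGG) or a SMAD element (CAGACA).
Ogn (chr13:49607765-49608064, plus strand): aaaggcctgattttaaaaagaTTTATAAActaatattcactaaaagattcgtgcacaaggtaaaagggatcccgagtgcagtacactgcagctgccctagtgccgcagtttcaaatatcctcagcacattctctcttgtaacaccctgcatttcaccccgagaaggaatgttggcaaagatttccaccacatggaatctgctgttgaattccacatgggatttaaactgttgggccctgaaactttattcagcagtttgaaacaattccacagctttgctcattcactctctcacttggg
Prelp (chr1:133921352-133921651, minus strand): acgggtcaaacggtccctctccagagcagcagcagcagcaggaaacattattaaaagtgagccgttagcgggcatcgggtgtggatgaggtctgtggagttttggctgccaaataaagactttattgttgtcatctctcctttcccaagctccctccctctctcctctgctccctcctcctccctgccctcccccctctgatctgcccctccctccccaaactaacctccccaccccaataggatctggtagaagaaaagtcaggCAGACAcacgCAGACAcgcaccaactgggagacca
Optc (chr1:133907950-133908249, minus strand): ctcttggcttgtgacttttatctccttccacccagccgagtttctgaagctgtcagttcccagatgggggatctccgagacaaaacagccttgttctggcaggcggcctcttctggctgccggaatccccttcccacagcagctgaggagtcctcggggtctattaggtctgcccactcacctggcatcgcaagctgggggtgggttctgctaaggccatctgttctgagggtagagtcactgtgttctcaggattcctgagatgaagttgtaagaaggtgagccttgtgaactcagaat
Bgn (chrX:73483351-73483650, plus strand): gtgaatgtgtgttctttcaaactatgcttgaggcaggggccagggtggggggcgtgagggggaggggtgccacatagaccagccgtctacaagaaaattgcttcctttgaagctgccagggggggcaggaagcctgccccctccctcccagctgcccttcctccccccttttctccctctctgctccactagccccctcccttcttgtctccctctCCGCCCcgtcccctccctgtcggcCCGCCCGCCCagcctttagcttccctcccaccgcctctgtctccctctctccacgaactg
Windows were found for 8 of the 10 members, and Podn had 2. The TATA box letters stood in the windows of Ogn and Aspn, and in 13.6% of all 32851 promoter windows. The GC box stood in Bgn and Podn and in 35.7% of all windows, and the SMAD element in Prelp and Podn and in 21.0% of all. The AP-1 letters TGANTCA, the E-box CACGTG and the CArG box were in none of the members' windows, against 7.81%, 7.15% and 1.63% of all windows. The Optc window held none of the motifs searched. The windows of Optc and Prelp start within the genes' annotated spans, at a shorter transcript. The windows of Bgn and Prelp were 63.7% and 55.3% G or C, against 42.3% for Ogn.

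Most members lie in gene clusters of the family (mm10 coordinates from the RefSeq annotation of GRCm38.p6, whole genes). Optc spans 133897193 to 133909688 and Prelp 133910304 to 133930102 on chromosome 1, both on the minus strand and 615 bases apart, so that Optc lies just downstream of Prelp. Fmod follows on the plus strand from 134037254 to 134048280. On chromosome 13 the plus strand holds, in order, Aspn (49544443 to 49567565), Omd (49582462 to 49592612) and Ogn (49608015 to 49624501). Dcn (97479500 to 97518163) and Lum (97565501 to 97572703) are neighbours on chromosome 10. Bgn is on chromosome X (73483601 to 73495936) and Podn on chromosome 4 (108014793 to 108031954). No other protein-coding gene lies between neighbours within these clusters. The centromere gene Cenpp overlaps Aspn, Omd and Ogn on the opposite strand. Its exons share 7 bases with Aspn and 0 with Omd or Ogn, and it averaged 0.269 FPKM in AngII+RvE1, 0.603 FPKM in AngII and 0.272 FPKM in Sham.

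Library totals of the deposited values ran from 385846 to 514281, with 11466 to 12996 genes at 1 FPKM or more. The read depth behind them is unknown, and counting intervals are therefore not given. AngII libraries 3, 4 and 5 stood apart. All 10 lymphocyte markers were in the table, and their summed level was 776, 265 and 1206 FPKM in those libraries, against 13.0 and 6.34 FPKM in AngII libraries 1 and 2. It lay between 7.91 and 10.7 FPKM in AngII+RvE1 and between 3.69 and 63.2 FPKM in Sham. Contractile smooth muscle markers, all 10 detected and with Acta2, Tagln and Cnn1 the highest among them, summed to between 5452 and 9807 FPKM in AngII+RvE1, between 1242 and 3451 FPKM in AngII, and between 1784 and 12364 FPKM in Sham. The 10 fibroblast markers summed to between 1094 and 2005 FPKM in AngII+RvE1, between 1177 and 2170 FPKM in AngII and between 726 and 1957 FPKM in Sham. Macrophage markers, all 8 detected, summed to between 262 and 347 FPKM in AngII+RvE1, between 261 and 3100 FPKM in AngII and between 215 and 338 FPKM in Sham. Smooth muscle and fibroblast markers were thus present in every library, and adipocyte markers were high, with sums between 7884 and 14030 FPKM in AngII+RvE1, between 14258 and 19506 FPKM in AngII and between 8468 and 19641 FPKM in Sham. Cardiac muscle markers varied widely, with sums of 9.20 to 1136 FPKM in AngII+RvE1, 10.4 to 2138 FPKM in AngII and 37.5 to 847 FPKM in Sham. Their medians were 636 FPKM in AngII+RvE1, 17.7 FPKM in AngII and 187 FPKM in Sham. The part of these cell types in the members' levels was not tested. In whole tissue, fewer cells of a type and less RNA per cell cannot be told apart.

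Levels per length (FPKM) followed a similar order in the 3 groups. Bgn was highest on average in each group, followed by Dcn. In AngII+RvE1 all Bgn values lay above all Dcn values. In AngII the ranges overlapped, and Bgn exceeded Dcn in 3 of 5 libraries. In Sham the ranges overlapped too, though Bgn exceeded Dcn within each of the 5 libraries. Ogn and Prelp came next in all groups with overlapping ranges, then Lum, and Omd came last, at 3.51 ± 1.23 FPKM in AngII+RvE1, 2.15 ± 1.43 FPKM in AngII and 3.90 ± 1.83 FPKM in Sham. Optc was 7th in AngII+RvE1, 9th in AngII and 8th in Sham. Among all genes of a library, Bgn ranked between 13 and 261 and Dcn between 95 and 313.

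**Figure D1:**
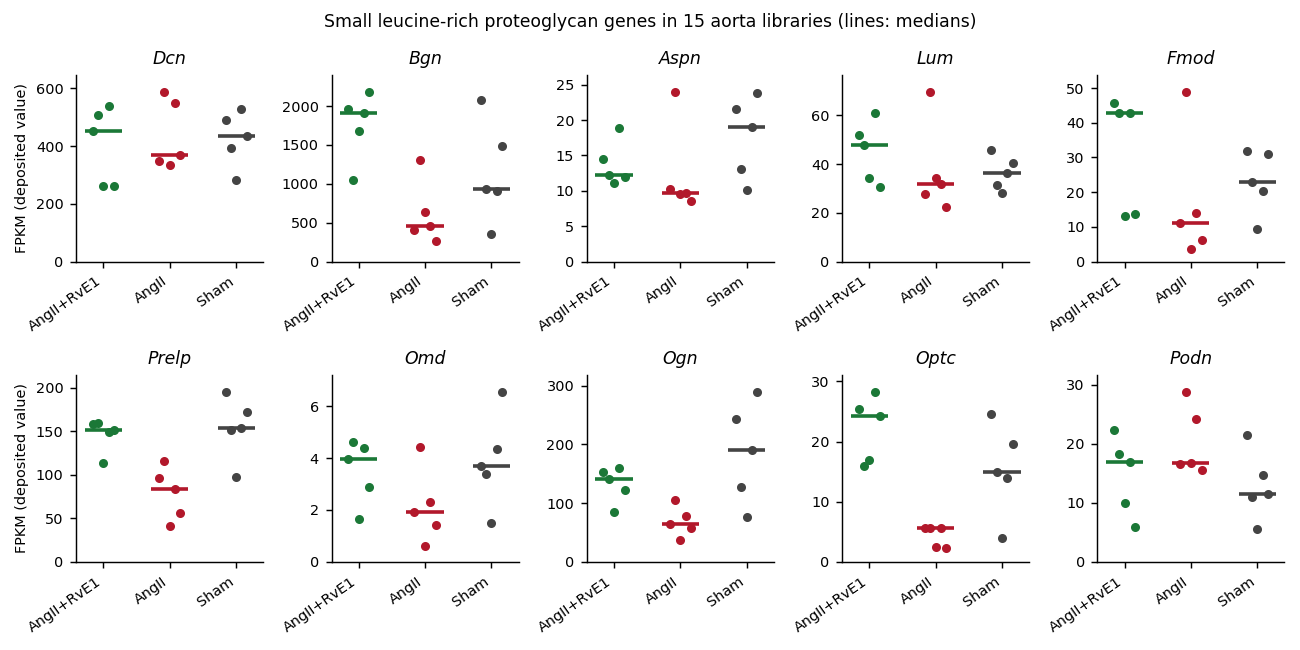
Deposited FPKM values (y axes, linear, starting at 0) of the 10 genes in AngII+RvE1, AngII and Sham libraries, with 1 point per library and a line at the group median. Optc in AngII lies between 2.25 and 5.69, below all AngII+RvE1 points, while Dcn points overlap in all 3 groups.

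Among the class III members, opticin is best known from the vitreous of the eye, where it coats collagen fibrils. Optc was 25.4, 15.9, 17.0, 28.3 and 24.2 FPKM in AngII+RvE1 libraries 1 to 5, then 5.64, 5.69, 2.51, 5.68 and 2.25 FPKM in AngII and 24.6, 14.9, 3.89, 14.0 and 19.5 FPKM in Sham. All AngII+RvE1 libraries lay above all AngII libraries, and Sham library 3 fell inside the AngII range. On the log2(FPKM + 1) scale AngII minus Sham was -1.50 (SE 0.37, limma adjusted p = 0.0435), a call made in 3 of the 15 fits with 1 library left out. AngII+RvE1 minus AngII was 2.15 (SE 0.37, adjusted p = 0.0135), about 4.45-fold on the value + 1 scale. AngII+RvE1 minus Sham was 0.66, with a 95% interval of -0.14 to 1.45 (adjusted p = 0.830).

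Osteoglycin binds collagen and is abundant in arterial and cardiac matrix. Ogn was 154, 141, 84.6, 161 and 122 FPKM in AngII+RvE1, against 64.9, 105, 36.9, 78.2 and 58.3 FPKM in AngII and 243, 127, 75.8, 191 and 290 FPKM in Sham. Sham library 3 and AngII+RvE1 library 3 were the lowest of their groups and lay within the AngII range. AngII minus Sham was -1.35 (SE 0.34, limma adjusted p = 0.0454), a call made in 3 of the 15 fits with 1 library left out. AngII+RvE1 minus AngII was 0.98 (SE 0.34, adjusted p = 0.0803), which did not pass.

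PRELP links the basement membrane proteoglycan perlecan to collagen. Prelp was 158, 159, 114, 149 and 151 FPKM in AngII+RvE1, against 96.0, 116, 41.4, 83.3 and 56.1 FPKM in AngII and 195, 152, 97.1, 154 and 172 FPKM in Sham. AngII library 2 reached into the range of both other groups, and AngII+RvE1 libraries varied least, with a coefficient of variation of 12.7% against 38.1% in AngII and 23.5% in Sham. AngII minus Sham was -1.02 (SE 0.25, limma adjusted p = 0.0429), and AngII+RvE1 minus AngII was 0.97 (SE 0.25, adjusted p = 0.0342). These calls were made in 3 and 8 of the 15 fits with 1 library left out. AngII+RvE1 minus Sham was -0.05, with a 95% interval of -0.59 to 0.49.

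Biglycan, which can also signal through Toll-like receptors when set free from the matrix, was the most abundant member. Bgn was 1967, 1051, 1681, 1917 and 2188 FPKM in AngII+RvE1, against 407, 1302, 632, 451 and 266 FPKM in AngII and 2076, 931, 349, 911 and 1484 FPKM in Sham. AngII library 2 stood above the lowest AngII+RvE1 library, and Sham spanned nearly the whole range. AngII+RvE1 minus AngII was 1.70 (SE 0.47, limma adjusted p = 0.0402), a call made in 5 of the 15 fits with 1 library left out. AngII minus Sham was -0.90 (SE 0.47, adjusted p = 0.234), and AngII+RvE1 minus Sham was 0.80 (SE 0.47, adjusted p = 0.839).

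Decorin sequesters TGF-beta and limits the lateral growth of collagen fibrils. Dcn was 452, 508, 260, 539 and 263 FPKM in AngII+RvE1, against 348, 589, 335, 548 and 369 FPKM in AngII and 492, 395, 282, 530 and 433 FPKM in Sham. The 3 groups overlapped throughout. AngII minus Sham was 0.03, with a 95% interval of -0.54 to 0.60, or -0.10 with the libraries rescaled by their median ratio, and AngII+RvE1 minus AngII was -0.14, with an interval of -0.71 to 0.43.

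Lumican and fibromodulin compete for sites on collagen, and fibromodulin steers its cross-linking. Lum ranged from 30.4 to 60.9 FPKM in AngII+RvE1, from 22.3 to 69.8 FPKM in AngII and from 28.2 to 45.8 FPKM in Sham, with log2 differences of -0.06 for AngII minus Sham and 0.34 for AngII+RvE1 minus AngII. Fmod ranged from 13.0 to 45.7 FPKM in AngII+RvE1, from 3.64 to 49.0 FPKM in AngII and from 9.31 to 31.8 FPKM in Sham. Its AngII+RvE1 minus AngII difference was 1.18, with a wide 95% interval of -0.03 to 2.38 (limma adjusted p = 0.181). AngII library 2 was the highest of its group for both genes.

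Asporin and osteoadherin complete the chromosome 13 cluster with Ogn. Asporin binds TGF-beta, and osteoadherin is best known from bone. Aspn ranged from 11.1 to 18.9 FPKM in AngII+RvE1, from 8.54 to 24.0 FPKM in AngII and from 10.1 to 23.9 FPKM in Sham. For AngII minus Sham, Aspn gave -0.51 and Omd -0.66 (limma adjusted p = 0.248 and 0.210), neither past the threshold. Omd was at 0.618 FPKM in AngII library 3, where the added 1 shrinks differences.

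Podocan, which restrains smooth muscle cell growth in mice, was the member with the largest positive estimate in AngII. Podn was 22.4, 18.3, 10.03, 16.9 and 5.96 FPKM in AngII+RvE1, against 16.6, 28.8, 16.8, 24.1 and 15.6 FPKM in AngII and 21.5, 11.0, 5.48, 14.7 and 11.5 FPKM in Sham. AngII minus Sham was 0.70, with a 95% interval of -0.04 to 1.44 (limma adjusted p = 0.211), and AngII+RvE1 minus AngII was -0.53, with an interval of -1.26 to 0.21 (adjusted p = 0.327). Neither passed the threshold.

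**Figure D2:**
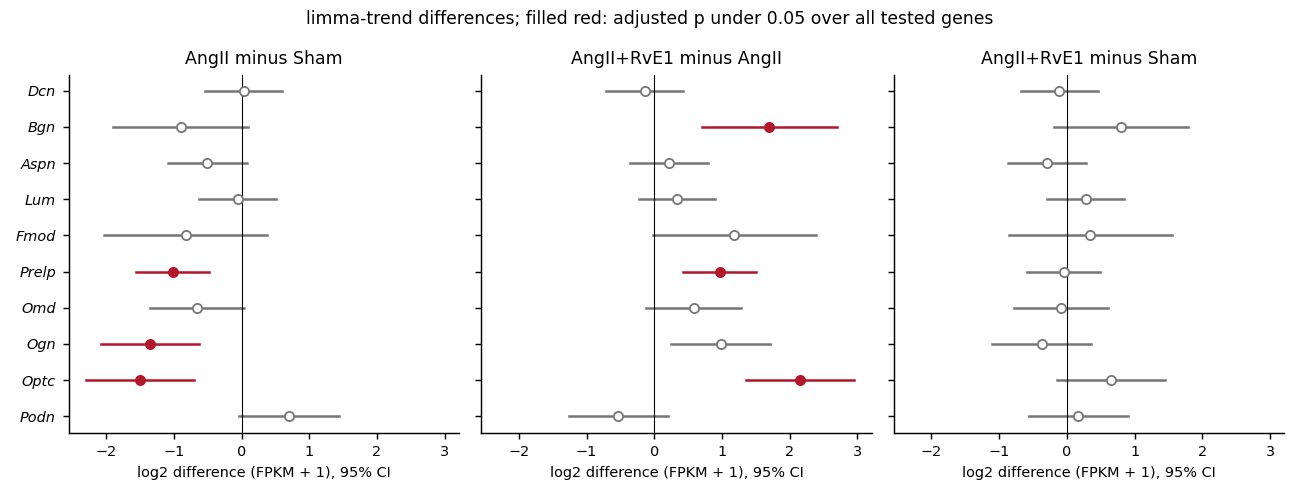
Differences on the log2(FPKM + 1) scale (x axes) with 95% confidence intervals for the 10 genes (y axis) in the 3 comparisons, with filled red points at an adjusted p under 0.05 over all tested genes. Ogn, Prelp and Optc are filled for AngII minus Sham, Bgn, Prelp and Optc for AngII+RvE1 minus AngII, and none for AngII+RvE1 minus Sham.

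In AngII against Sham, 3 of the 10 members were called lower and 0 higher, where 0.809% of the 12603 tested genes were called lower and 2.36% higher (3.17% in either direction). The members' median log2 difference was -0.75, against 0.11 over all tested genes. In AngII+RvE1 against AngII, 3 of the 10 were called higher and 0 lower, where 4.21% of all genes were called higher and 4.31% lower (8.52% in either direction), with a median of 0.77 against -0.11 over all. These 2 comparisons share the AngII libraries. In AngII+RvE1 against Sham, limma called 0 of the 10, against 0.0238% of all genes (0.0159% higher and 0.00793% lower), and 0 members had an unadjusted p under 0.05, against 6.69% of all genes. That share of all genes was 26.2% for AngII against Sham and 29.0% for AngII+RvE1 against AngII, where 3 and 4 members had an unadjusted p under 0.05. The groups did not overlap for 0 members in AngII against Sham, where 0.778% of genes lay wholly lower and 2.92% wholly higher. They did not overlap for 1 member, Optc, in AngII+RvE1 against AngII, where 5.87% lay wholly higher and 5.23% wholly lower. For AngII+RvE1 against Sham they overlapped for all 10 members, while 0.825% of genes lay wholly higher and 0.262% wholly lower.

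Optc in AngII+RvE1 against AngII was the call that held in each fit with 1 library left out. For AngII against Sham, 0 members were called when any of 12 libraries was left out. These were AngII library 3, 4 or 5, Sham library 1, 2, 4 or 5, and the 5 AngII+RvE1 libraries. The latter enter only through the shared spread and the filter on low values. In those 12 fits limma called 16 to 79 of all tested genes lower, against 102 in the full fit. The estimates of the 3 called members remained negative, from -1.64 to -1.15 for Ogn, -1.18 to -0.82 for Prelp and -1.89 to -1.29 for Optc. The 3 calls were also absent when only the AngII and Sham libraries entered the fit or when no filter on low values was used. For AngII+RvE1 against AngII, Optc was called in all 15 fits, Prelp in 8 and Bgn in 5. The count of called members was 1 without AngII library 3, 4 or 5 or AngII+RvE1 library 1, 4 or 5, and 5 without AngII library 2. It was 2 without AngII library 1, AngII+RvE1 library 2 or 3 or Sham library 2 or 4. Of all tested genes, limma called 44 to 303 higher in the fits with 1 called member and 295 to 496 in those with 2. It called 715 higher without AngII library 2, against 531 in the full fit. With AngII libraries 3, 4 and 5 all left out, which leaves 2 AngII libraries, no member was called in either comparison. Of 12281 tested genes, limma then called 18 higher and 2 lower in AngII against Sham. In AngII+RvE1 against AngII it called 0 higher and 1 lower. AngII+RvE1 minus AngII was then 1.76 for Optc (SE 0.48, limma adjusted p = 0.299), 1.23 for Bgn (SE 0.62, adjusted p = 0.459) and 0.46 for Prelp (SE 0.25, adjusted p = 0.484). AngII minus Sham was then -1.01 for Ogn (SE 0.45, adjusted p = 0.719), -1.11 for Optc (SE 0.48) and -0.51 for Prelp (SE 0.25, adjusted p = 0.755).

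A ratio to Dcn within a library does not depend on how the libraries were scaled. The ratio of Ogn to Dcn was 0.278 to 0.463 in AngII+RvE1, 0.110 to 0.186 in AngII and 0.269 to 0.669 in Sham. No AngII library reached either other group, and AngII libraries 1 and 2, with few lymphocyte transcripts, had 0.186 and 0.178. Prelp over Dcn was 0.277 to 0.574 in AngII+RvE1, 0.124 to 0.276 in AngII and 0.291 to 0.398 in Sham, so AngII again lay wholly below, though narrowly. Optc over Dcn was 0.0312 to 0.0921 in AngII+RvE1, 0.00609 to 0.0162 in AngII and 0.0138 to 0.0499 in Sham, where it overlapped AngII. Thus 2 of 9 such ratios lay wholly lower in AngII than in Sham (1.49% of all genes over Dcn did), and 3 of 9 wholly higher in AngII+RvE1 than in AngII (4.05% of all genes). The opposite directions held 0 of 9 in both comparisons, against 0.651% and 0.429% of all genes. For AngII+RvE1 against Sham 0 of 9 ratios were apart, against 0.682% of all genes higher and 0.0238% lower. Bgn over Dcn had medians of 4.35 in AngII+RvE1, 1.17 in AngII and 2.36 in Sham, with overlap. Bgn made up a mean of 67.8% of the members' summed FPKM in AngII+RvE1, 44.8% in AngII and 53.6% in Sham, while Dcn made up 16.1% in AngII+RvE1, 36.1% in AngII and 23.3% in Sham. These ratios show unequal levels between members and were not tested.

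**Figure D3:**
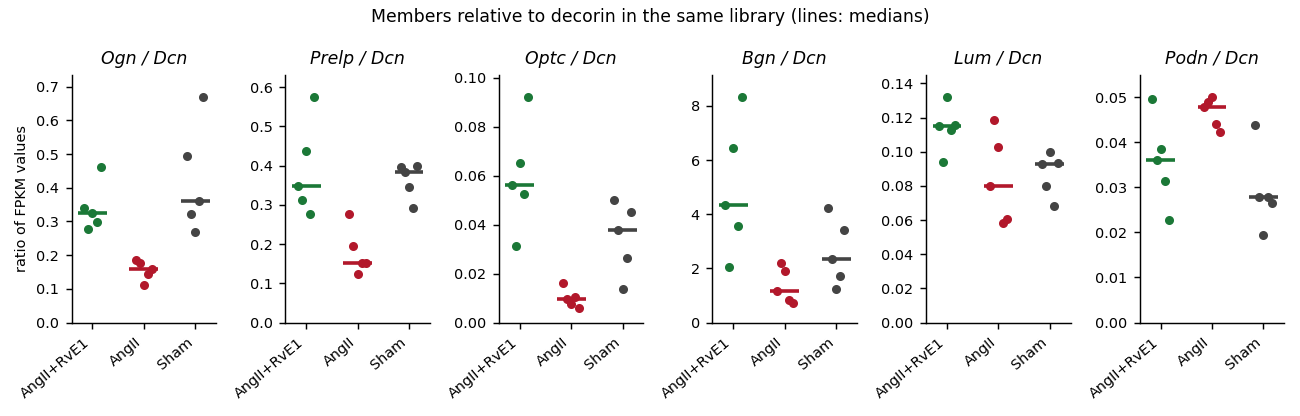
Ratio of 6 members to Dcn in the same library (y axes, linear, starting at 0) in AngII+RvE1, AngII and Sham, with 1 point per library and a line at the median. AngII points lie below all others for Ogn and Prelp, while for Bgn the groups overlap, with medians of 4.35 in AngII+RvE1, 1.17 in AngII and 2.36 in Sham.

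Across all libraries the members differed in the markers that they followed most closely. Optc and Bgn followed the mean of the contractile smooth muscle markers most closely (Pearson's r 0.97 and 0.94 over 15 libraries, 0.95 and 0.94 over the 12 without AngII libraries 3, 4 and 5), then Prelp and Ogn (0.86 and 0.84). Dcn and Podn had r of 0.23 and 0.01 with the smooth muscle mean and of 0.78 and 0.77 with the fibroblast mean, while Lum had the highest r with it, 0.88. Fmod, Aspn and Omd lay between, with r of 0.66 to 0.73 for smooth muscle and 0.60 to 0.74 for fibroblast markers. Within groups the contrast was smaller. In deviations from group means, Dcn and Podn had r of 0.53 and 0.59 with the smooth muscle mean and 0.83 and 0.88 with the fibroblast mean. Optc and Bgn had 0.94 and 0.90 with the smooth muscle mean and 0.71 and 0.76 with the fibroblast mean, and Ogn had 0.84 and 0.73. Over 15 libraries, r with the adipocyte mean ran from -0.81 for Bgn to 0.23 for Podn. With the lymphocyte mean it ran from -0.87 for Prelp (-0.37 over the 12 libraries) to 0.07 for Podn. With the endothelial mean it ran from -0.23 for Prelp to 0.39 for Podn. The values in this paragraph describe the 15 libraries, which share group differences and scaling, and no test was made.

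Per 1000 FPKM of summed smooth muscle markers, Optc was 2.47 to 2.97 in AngII+RvE1, 1.61 to 2.78 in AngII and 1.99 to 3.24 in Sham, so the groups overlapped. Bgn on the same scale was 193 to 246 in AngII+RvE1, 188 to 406 in AngII and 168 to 211 in Sham, also with overlap. Ogn was 12.4 to 25.9 in AngII+RvE1, 23.7 to 47.0 in AngII and 19.7 to 44.4 in Sham. Dcn and Podn lay the other way on this scale, with AngII wholly above both other groups. Dcn was 26.8 to 93.2 in AngII+RvE1, 171 to 297 in AngII and 39.8 to 158 in Sham. Podn was 0.608 to 3.36 in AngII+RvE1, 8.19 to 12.6 in AngII and 1.38 to 3.41 in Sham. The smooth muscle sum itself was 1242 to 3451 FPKM in AngII, below all AngII+RvE1 libraries (5452 to 9807 FPKM). A lower sum raises the ratio of any gene that does not follow these markers. Per 1000 FPKM of fibroblast markers, in contrast, Ogn was 77.4 to 105 in AngII+RvE1, 24.3 to 51.1 in AngII and 98.7 to 223 in Sham, with AngII apart from both. Optc was 10.1 to 21.0 in AngII+RvE1, 1.65 to 4.45 in AngII and 5.36 to 15.02 in Sham on that scale, again with AngII apart. Bgn was 669 to 1895 in AngII+RvE1, 226 to 600 in AngII and 480 to 1141 in Sham, with AngII apart from AngII+RvE1 but not from Sham. The largest part of the fibroblast sum was Gsn, with means of 569 FPKM in AngII+RvE1, 802 FPKM in AngII and 583 FPKM in Sham. The sum itself averaged 1525 FPKM in AngII+RvE1, 1579 FPKM in AngII and 1326 FPKM in Sham. This scale therefore leans on 1 gene that was highest in AngII. Of the smooth muscle markers, limma called 9 of 10 higher in AngII+RvE1 than in AngII, where 4.21% of all tested genes were. It called 1, Myocd, lower in AngII than in Sham, where 0.809% were. The AngII minus Sham estimates were nonetheless negative for 9 of the 10, with a median of -1.24 against 0.11 over all tested genes. Of the fibroblast markers limma called 0 of 10 in each comparison, where 8.52% of all genes were called in either direction in AngII+RvE1 against AngII, 3.17% in AngII against Sham and 0.0238% in AngII+RvE1 against Sham. The share of all genes with groups apart was not computed on either marker scale. The part of smooth muscle content in the members' differences was not tested.

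**Figure D4:**
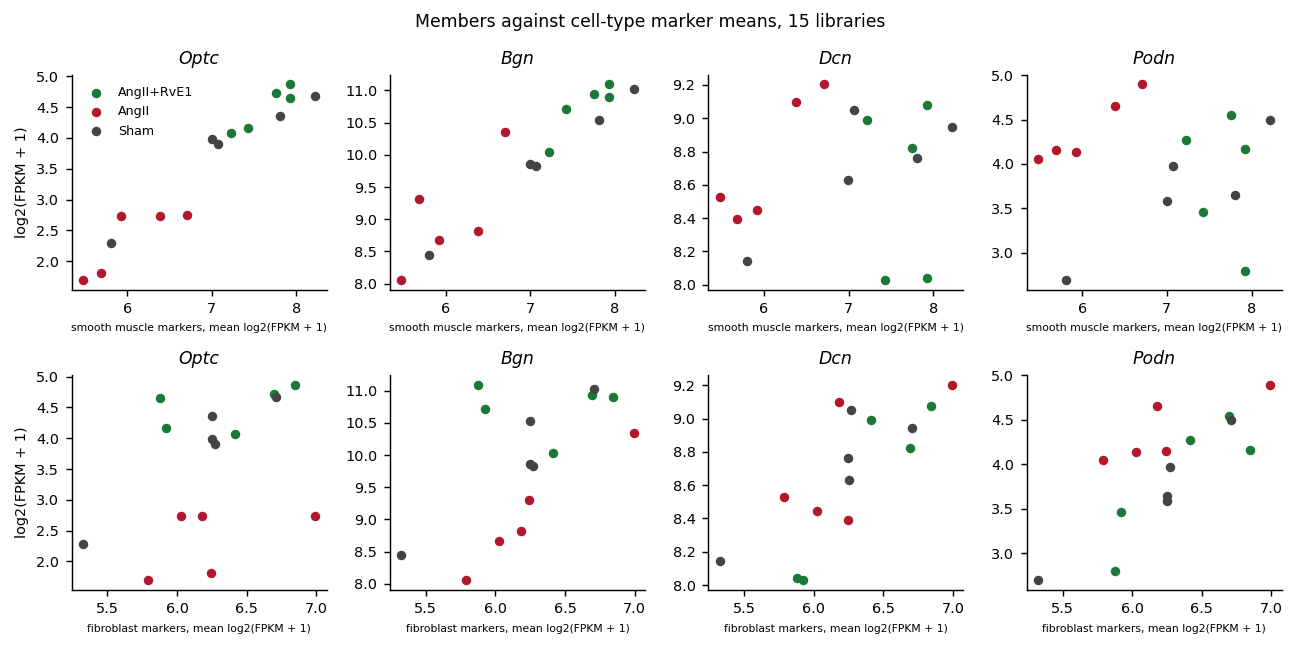
Optc, Bgn, Dcn and Podn (y axes, log2(FPKM + 1)) against the mean log2(FPKM + 1) of contractile smooth muscle markers (top) and fibroblast markers (bottom), with 1 point per library coloured by group. Over all 15 libraries r with the smooth muscle mean is 0.97 for Optc, 0.94 for Bgn, 0.23 for Dcn and 0.01 for Podn, and in deviations from group means it is 0.94, 0.90, 0.53 and 0.59 for the same genes.

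Pairs of members followed each other within groups as well. After each group's mean was taken away, r was above 0 for all 45 pairs, from 0.38 for Dcn with Bgn to 0.93 for Ogn with Omd. Without that step, Podn had r near 0 with Ogn, Prelp, Optc and Bgn (0.05, -0.06, -0.07 and 0.05), and the highest value was 0.92 for Ogn with Prelp. The adjacent genes Prelp and Optc had r of 0.89, Omd and Ogn 0.91, Dcn and Lum 0.65, and Aspn and Omd 0.82, while Optc and Bgn, on different chromosomes, had 0.88. The genes closest to the mean of the 10 members over 15 libraries were Pdgfrl, Pcolce2, Adamtsl3, Plekhh2 and Col4a4, with r between 0.95 and 0.97. Over the 12 libraries they were Adamtsl3, Serping1, Pkd2, Plekhh2 and Dock10, between 0.94 and 0.96. For Optc alone, Lmod1 and Myh11 of the contractile apparatus were among the 3 closest genes over 15 libraries (0.98 each), but not over the 12, where 2510009E07Rik, Fgd1 and Plekhg3 were the closest (0.98 each). For Dcn the matrix genes Fbln1 and Dpt were among the 3 closest over 15 libraries (0.93 and 0.89) and over the 12 (0.95 and 0.99).

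**Figure D5:**
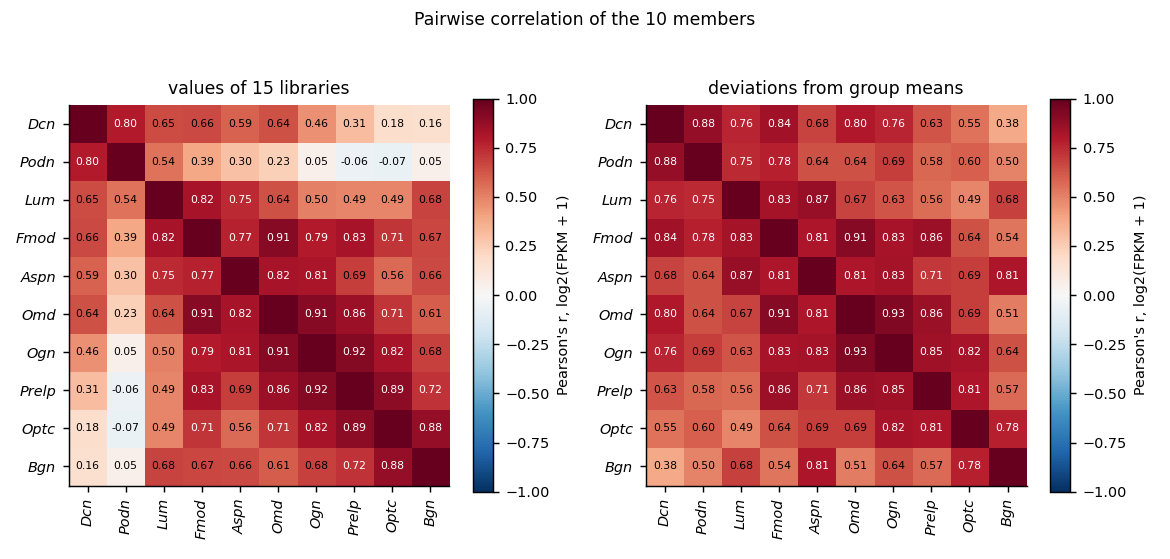
Pearson's r between members on the log2(FPKM + 1) scale, over the values of 15 libraries (left) and over deviations from group means (right). On the left Podn stands apart from Ogn, Prelp, Optc and Bgn, with r between -0.07 and 0.05, and on the right all 45 pairs are above 0.

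Other genes of the family were few in these aortas. Of 8, 3 passed the filter on low values and 0 were called in any comparison. Ecm2, the neighbour of Aspn on chromosome 13, averaged 29.4 ± 6.57 FPKM in AngII+RvE1, 15.4 ± 6.46 FPKM in AngII and 34.1 ± 15.02 FPKM in Sham (SD, n = 5 each). Its AngII minus Sham difference was -1.05 (SE 0.32, limma adjusted p = 0.0721), and AngII+RvE1 minus AngII was 0.95 (SE 0.32, adjusted p = 0.0728), both short of the threshold. The cornea gene Kera was listed at 0 in every AngII+RvE1 and Sham library.

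Of the enzymes that build the sugar chains, 4 rose in AngII compared with Sham and fell in AngII+RvE1 compared with AngII. Over all tested genes, 2.36% rose and 0.809% fell in AngII compared with Sham, while 4.21% rose and 4.31% fell in AngII+RvE1 compared with AngII. Of 21 tested genes of chondroitin and dermatan sulfate synthesis, 2 rose and 0 fell in AngII compared with Sham, while 0 rose and 2 fell in AngII+RvE1 compared with AngII, both times Chst11 and Chst15, which sulfate chondroitin chains. Chst15 averaged 7.97 ± 1.34 FPKM in AngII+RvE1, 14.4 ± 3.32 FPKM in AngII and 7.31 ± 2.36 FPKM in Sham. Of 5 keratan sulfate genes, the sulfotransferase gene Chst1 and the galactosyltransferase gene B4galt1 rose in AngII and fell in AngII+RvE1. Chst1 differed by 1.74 for AngII minus Sham (SE 0.35, limma adjusted p = 0.0223) and by -1.71 for AngII+RvE1 minus AngII (SE 0.35, adjusted p = 0.0177), on means of 5.27 ± 2.78 FPKM in AngII+RvE1, 19.8 ± 8.55 FPKM in AngII and 5.06 ± 2.23 FPKM in Sham. The list medians for AngII+RvE1 minus AngII were -0.06 for chondroitin and dermatan sulfate and -0.44 for keratan sulfate, against -0.11 over all genes. The keratan sulfate genes summed to 88.4, 66.0 and 77.8 FPKM in AngII libraries 3, 4 and 5. They summed to 48.6 and 51.6 FPKM in AngII libraries 1 and 2, and to between 29.5 and 50.1 FPKM in Sham. With AngII libraries 3, 4 and 5 left out, limma called 18 of all genes higher in AngII against Sham. It then called 0 higher and 1 lower in AngII+RvE1 against AngII.

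Among 13 tested ligands and receptors of the family, limma called 0 in AngII against Sham, where 3.17% of all genes were called. An unadjusted p under 0.05 was found for 6 of the 13, against 26.2% of all genes. Of these 6, Tgfb1, Tlr2 and Met were higher in AngII, and Tgfb2, Tgfb3 and Ccn2 were lower. In AngII+RvE1 against AngII 2 of the 13 were called, where 8.52% of all genes were (4.21% higher and 4.31% lower). Tgfb2, a growth factor bound by decorin and biglycan, rose by 1.53 (limma adjusted p = 0.0327), and Met, a receptor bound by decorin, fell by 0.59 (adjusted p = 0.0357). Of 16 fibrillar collagen and fibril genes, limma called only the elastin gene Eln higher in AngII+RvE1 than in AngII. Its means were 894 ± 383 FPKM in AngII+RvE1 and 230 ± 141 FPKM in AngII. Of the 16 differences 14 were positive, with a median of 0.85 against -0.11 over all tested genes. Of 10 processing proteases 1 rose, Htra1, a secreted serine protease, with means of 156 ± 41.0 FPKM in AngII+RvE1 and 65.3 ± 31.2 FPKM in AngII. Of 18 other proteoglycans 3 rose and 0 fell in that comparison: Cspg4, a proteoglycan of pericytes and smooth muscle (1.43, adjusted p = 0.0159), Acan, which encodes aggrecan (1.05, 0.0357), and Hspg2, which encodes the PRELP partner perlecan (0.98, 0.0450). Acan was near the floor, at 2.32 ± 0.935 FPKM in AngII+RvE1, 0.645 ± 0.671 FPKM in AngII and 0.864 ± 0.625 FPKM in Sham. Only in AngII+RvE1 did every library reach 1 FPKM for Acan, the level used by the filter. None of these 3 lists held a called gene in AngII against Sham, and none of the lists held one in AngII+RvE1 against Sham. Cartilage markers were low, with Col2a1 averaging 0.0233 FPKM in AngII+RvE1, 0.0259 FPKM in AngII and 0.0208 FPKM in Sham.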

How the data were processed

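RNA from mouse aorta was extracted with an RNeasy kit and libraries were made with a SMARTer mRNA-Seq kit, per the labels' protocols. The authors' deposited table holds 1 normalised value per gene and library. It names no unit, and the deposited values were treated as FPKM: they have decimals and unequal sums, and over 2139 single-transcript genes with values under 0.3 the lowest non-zero value fell with transcript length (Spearman's rho -0.34 across genes). The mm10 build is named in the submitters' processing notes. The aligner, quantifier, annotation and use of strand were not given in the sources used here.

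Genes under 1 FPKM in all but 4 or fewer libraries were removed, which left 12603. Values were analysed as log2(FPKM + 1) with limma-trend (limma 3.58.1, R 4.3.3), 1 mean per group over all 15 libraries, two-sided, with Benjamini-Hochberg adjustment over all tested genes of a comparison and a threshold of 0.05. Differences of low genes are understated on this scale. Groups came from the sample titles. The procedure was tested on simulated data. The members and lists were chosen with earlier results of these data known. Named genes are all members, up to 4 called genes per list with the smallest adjusted p, marker examples, and the 5 genes nearest to the members' mean by correlation. Ecm2, Kera, Col2a1, Cenpp and the genes nearest to single members were added after their values were seen. Alternatives were another added value, no filter, 2-group fits, a replicate block, rescaled libraries, array weights, and libraries left out. No 2 libraries were identical. RefSeq windows on GRCm38.p6 gave the promoters.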

Additional observations from a re-analysis of the deposited data

Results flagged for a closer look

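In 4 of 30 groups of 5 values, 1 library stood far from its group by Dixon's criterion at 95%; chance flags about 1 in 20 groups. AngII library 2 was highest for Lum (69.8 FPKM, others 22.3 to 34.5), for Fmod (49.0 FPKM, others 3.64 to 14.1) and for Aspn (24.0 FPKM, others 8.54 to 10.3). The same library had the highest summed fibroblast markers of its group, 2170 FPKM, and the highest summed cardiac muscle markers of all libraries, 2138 FPKM; their part in these values was not tested. AngII+RvE1 library 3 was lowest for Prelp (114 FPKM, others 149 to 159).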

How the results depend on the processing

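Adding 0.1 in place of 1 and rescaling libraries kept each call on the members. For AngII against Sham, where 3 members were called lower, the count was 0 without a filter on low values and 5 with array weights. It was 0 with only the 2 groups compared, 0 without AngII libraries 3, 4 and 5, and 0 to 4 with 1 library left out. Of all tested genes, limma called 102 of 12603 lower in the main fit, 29 of 26187 without a filter and 717 of 12603 with array weights. It called 8 of 12180 lower with only the 2 groups, 2 of 12281 without AngII libraries 3, 4 and 5, and 16 to 558 with 1 library left out. For AngII+RvE1 against AngII, where 3 members were called higher, the members' count was 1 without a filter and 6 with array weights. It was 0 without AngII libraries 3, 4 and 5, and 1 to 5 with 1 library left out. Of all tested genes, 531 of 12603 were called higher in the main fit, 213 of 26187 without a filter and 1502 of 12603 with array weights. Without AngII libraries 3, 4 and 5 it was 0 of 12281, and with 1 library left out 44 to 833. The other counts of called members were 0 under each setting. The log2 difference of Dcn for AngII minus Sham was -0.10 after rescaling. Without AngII libraries 3, 4 and 5, AngII minus Sham was 0.29 for Lum and 0.15 for Fmod, and AngII+RvE1 minus AngII was -0.015 for Lum and -0.22 for Aspn, all opposite in sign to the values from all libraries. With 1 library left out, AngII minus Sham ranged from -0.11 to 0.12 for Dcn and from -0.31 to 0.090 for Lum. AngII+RvE1 minus Sham ranged from -0.25 to 0.028 for Dcn, -0.21 to 0.044 for Prelp, -0.30 to 0.095 for Omd and -0.074 to 0.43 for Podn. The causes were not tested.

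Whether replicate numbers pair the libraries is unknown. Same-numbered libraries had correlations of deviations from -0.41 to 0.52 over 15 pairs. Differently numbered pairs were not examined, so this range cannot decide the question. With the replicate number as a block, 3 members were called lower in AngII against Sham and 2 higher in AngII+RvE1 against AngII, where the adjusted p of Bgn was 0.0770 by limma. Read depth is unknown, which limits what can be said of low genes such as Omd.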
